A study of Mus musculus with 29 samples.

Results

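The chemokine genes followed here in mouse liver, by bulk RNA-seq of whole tissue, were Ccl2, Ccl4, Ccl6, Ccl9, Ccl24, Cxcl1, Cxcl9, Cxcl10, Cxcl13 and Cxcl16. They were taken by gene symbol from the count table, where they were 10 of 55421 genes. The mice fell into 6 groups. Young mice (C57BL6/N, 5 months) received vehicle, and old mice (C57BL/6J, 20 months in females and 24 months in males) received vehicle or HDM201. No group carried an engineered allele. HDM201, which blocks the p53-binding pocket of MDM2, was given by daily oral gavage at 10 mg/kg for 14 days, and the vehicle was buffered methylcellulose. Read counts covered 27 mice, with 5 young vehicle, 4 old vehicle and 5 old HDM201 females, and 4 young vehicle, 4 old vehicle and 5 old HDM201 males. Young and old mice also differed in substrain, so age and substrain cannot be told apart in any comparison of young with old mice. Old females and old males differed in age, so sex and age cannot be told apart where effects in old mice differ between the sexes.

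Chemokines are small secreted proteins that steer the migration of leukocytes through G protein-coupled receptors. The CC and CXC families are named for the spacing of their first conserved cysteines. In liver they come from hepatocytes, Kupffer cells (the resident macrophages), sinusoidal endothelium, stellate cells and recruited leukocytes, and many are induced through NF-kB or by interferons. Among the members, Ccl2 attracts monocytes through Ccr2, Ccl4 attracts T cells, NK cells and monocytes, and Ccl6 and Ccl9 are rodent CC chemokines that act on Ccr1. Ccl24 (eotaxin-2) attracts eosinophils through Ccr3, and Cxcl1 attracts neutrophils through Cxcr2. Cxcl9 and Cxcl10 are interferon-induced ligands of Cxcr3 on activated T cells, Cxcl13 attracts B cells through Cxcr5, and Cxcl16 is a membrane-anchored ligand of Cxcr6 that also acts as a scavenger receptor.

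By GENCODE gene models on GRCm38 (mm10, the build the authors aligned to), the members lay on chromosomes 5 and 11. Cxcl9 (chr5:92321347-92328079, minus strand) and Cxcl10 (chr5:92346638-92348889, minus strand) were close neighbours on chromosome 5, with Cxcl1 (chr5:90891241-90893115, plus strand) and Cxcl13 (chr5:95956951-95961068, plus strand) on either side of them. Ccl24 (chr5:135569937-135573049, minus strand) lay further along the same chromosome. Ccl9 (chr11:83572919-83578636, minus strand), Ccl6 (chr11:83587882-83593087, minus strand) and Ccl4 (chr11:83662584-83664683, plus strand) followed each other on chromosome 11, which also held Ccl2 (chr11:82035571-82037453, plus strand) and Cxcl16 (chr11:70453983-70459984, minus strand). Exons of Cxcl10 shared 133 bases with Art3, and exons of Cxcl16 shared 552 bases with Zmynd15, both on the opposite strand. Whether the counting used strand is not given in the sources used here, so reads from those stretches are uncertain.

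RefSeq promoters (GRCm38.p6) were matched for 6 of the 10 members, namely Ccl6, Ccl9, Cxcl1, Cxcl9, Cxcl10 and Cxcl13. The 250 bases before each start were searched on both strands for the NF-kB consensus (kB), the core of the interferon-stimulated response element (ISRE, GAAANNGAAA) and the gamma-activated site (GAS, TTCNNNGAA). Of 32851 RefSeq promoters, 7.25% held kB, 2.98% held ISRE and 7.02% held GAS. Among the members, kB was found before Ccl9, Cxcl1 and Cxcl10, ISRE before Cxcl10, and GAS before none of the 6. The sequences of Cxcl1, Cxcl9 and Cxcl10 are shown because the 3 inducible CXC genes of chromosome 5 differ in these matches, while Cxcl9 and Cxcl10 had like patterns of RNA level. Each run is 230 bases, reads 5′ to 3′ on the gene's strand and ends 20 bases before the start, with kB and ISRE matches in capitals.
Cxcl1, chr5:90890995-90891224, plus strand: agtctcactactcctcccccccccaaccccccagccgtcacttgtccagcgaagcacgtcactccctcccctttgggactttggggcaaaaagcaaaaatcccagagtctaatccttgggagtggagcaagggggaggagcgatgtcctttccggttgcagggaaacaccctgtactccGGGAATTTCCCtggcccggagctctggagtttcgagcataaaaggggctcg
Cxcl9, chr5:92328100-92328329, minus strand: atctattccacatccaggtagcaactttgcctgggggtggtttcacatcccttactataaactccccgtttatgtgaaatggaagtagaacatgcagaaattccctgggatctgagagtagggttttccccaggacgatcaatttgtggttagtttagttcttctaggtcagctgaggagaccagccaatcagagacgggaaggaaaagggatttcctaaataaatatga
Cxcl10, chr5:92348910-92349139, minus strand: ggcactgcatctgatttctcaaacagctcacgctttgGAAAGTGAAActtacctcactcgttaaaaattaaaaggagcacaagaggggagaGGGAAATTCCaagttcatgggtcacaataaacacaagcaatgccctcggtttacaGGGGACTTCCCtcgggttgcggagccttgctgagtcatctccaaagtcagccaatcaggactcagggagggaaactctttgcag
In Cxcl1 the kB match began 71 bases before the start and overlapped a match on the other strand. In Cxcl10 the ISRE match lay 213 bases before the start and kB matches lay 159 and 104 bases before it, the latter overlapping 2 others. These matches describe letters in the windows and were not tested as binding sites.

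Counted reads per mouse ran from 16485900 to 23570458 (median 19149235). Levels are given as CPM, counts per 1000000 counted reads, scaled by the trimmed mean of M values. The labelled tissue showed its defining transcripts: 7 hepatocyte markers, Alb among them, summed to between 79425 and 163898 CPM in each mouse. Fold changes come from edgeR's quasi-likelihood test on all genes that passed its count filter, with Benjamini-Hochberg false discovery rates (FDR) over all genes tested and a threshold of 0.05.

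Most of the chemokine genes had higher levels in old than in young vehicle females, and few were called with HDM201. In females, 6 of the 9 members tested were higher in old mice (Ccl2, Ccl6, Cxcl1, Cxcl10, Cxcl13 and Cxcl16) and none was lower, where 16.8% of 14233 genes tested were called higher and 15.0% lower. In males, 1 of 9 tested was called higher (Cxcl16), where 2.76% of 13755 genes were called higher and 0.931% lower, and 7 of 9 had an unadjusted p under 0.05. With HDM201, 1 of 9 members was called lower in old females (Cxcl13), where 2.90% of 14445 genes were called lower and 2.35% higher. That call was lost in 7 of 9 fits without 1 mouse. In the same comparison 4 of 9 members had an unadjusted p under 0.05 (Ccl6, Ccl9, Cxcl13 and Cxcl16). In old males none of 9 members was called with HDM201 by edgeR or DESeq2, none had an unadjusted p under 0.05, and 0.00709% of 14109 genes were called lower and 0% higher. The percentages given are shares at FDR under 0.05. The members were chosen with earlier results of these data known, so their counts beside these shares are a description and no test of the set. The share of all genes with an unadjusted p under 0.05 was not counted, so member counts at that p stand alone. The age and HDM201 comparisons share the old vehicle mice, so the values of each stand side by side below and were not combined. In whole liver, fewer cells of a type and less RNA per cell cannot be told apart.

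**Figure D1:**
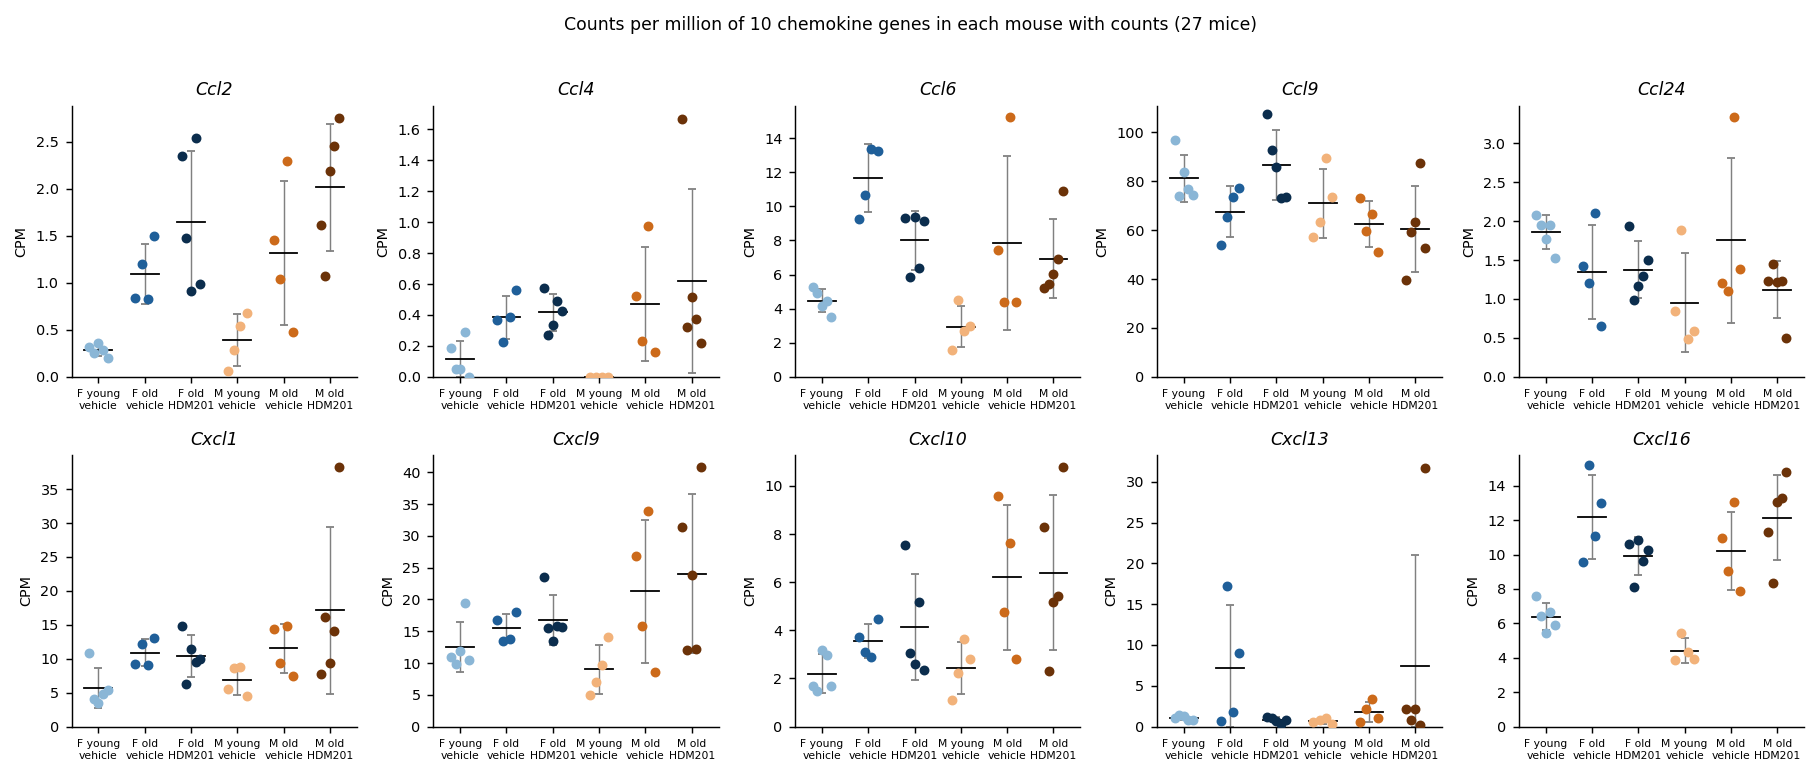
Level of each chemokine gene in CPM (linear axis from 0) in each of 27 mice, by group (F, female; M, male). Points are mice, black lines group means and grey bars 1 SD (cut at 0). Old vehicle mice lay mostly above young vehicle mice for Ccl2, Ccl6, Cxcl1, Cxcl10 and Cxcl16, while Ccl9 stayed between 39.5 and 107 CPM in all groups and single old mice led Cxcl13.

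Levels of different members were compared per kilobase of merged exons. Ccl9 was the most abundant in all 6 groups, at 26.7 ± 3.16 CPM per kb (SD) in young vehicle females and 23.3 ± 4.65 in young vehicle males. In both young groups its range lay above that of the next member, which was Cxcl9 at 4.15 ± 1.31 CPM per kb in females and Cxcl1 at 3.66 ± 1.15 in males. Cxcl9, Cxcl1, Ccl6 and Cxcl16 formed a middle tier in young mice, and neighbours in that order overlapped. Ccl2 and Ccl4 were lowest there, at 0.249 ± 0.0554 and 0.176 ± 0.180 CPM per kb in young females. Cxcl13 changed its place most, from eighth in both young groups (0.900 ± 0.243 CPM per kb in females) to the third in old vehicle females (6.24 ± 6.67), where its SD exceeded its mean. In old HDM201 males it was the fourth, at 6.45 ± 11.8 CPM per kb.

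**Figure D2:**
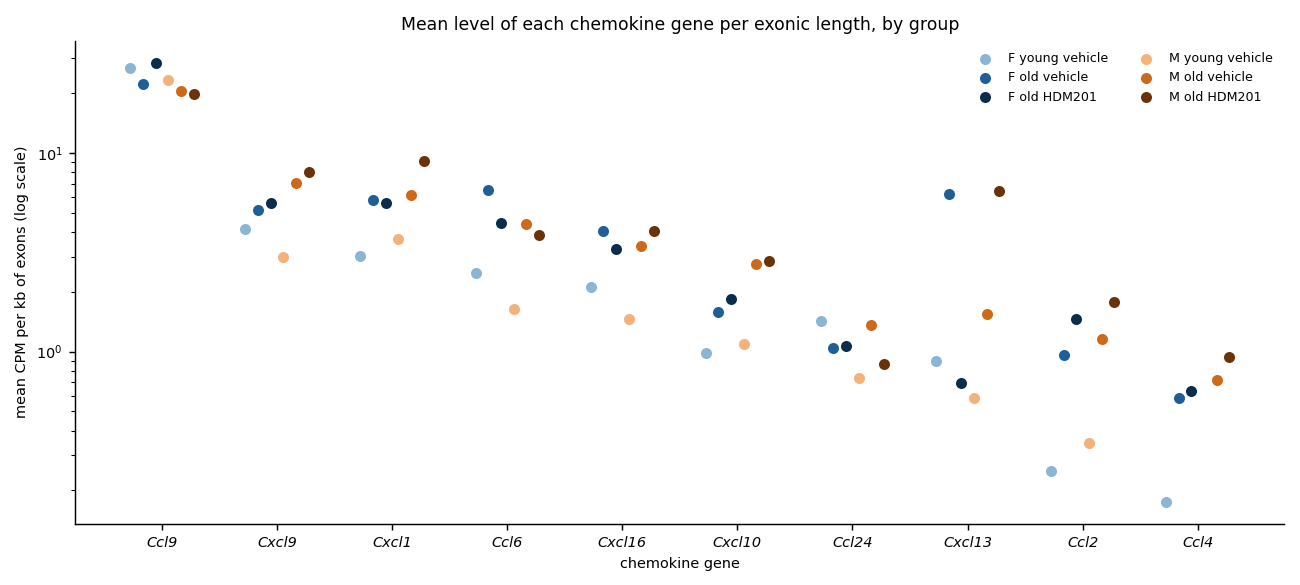
Mean level of each member in CPM per kb of exons (log axis) in the 6 groups, 4 or 5 mice each. Ccl9 was highest in each group, and Ccl4 in young vehicle males, at 0, is not drawn.

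Ccl2 encodes the main monocyte attractant. Its level in CPM was 0.315, 0.256, 0.364, 0.287 and 0.196 in young vehicle females, 0.843, 1.20, 0.830 and 1.50 in old vehicle females and 2.35, 1.48, 0.915, 2.54 and 0.987 in old HDM201 females. In males Ccl2 was at 0.0604, 0.286, 0.545 and 0.679 CPM in young vehicle, 1.46, 1.04, 2.30 and 0.478 in old vehicle and 1.61, 1.07, 2.19, 2.45 and 2.75 in old HDM201 mice. All 4 old vehicle females lay above all 5 young females, and 3 of 4 old vehicle males lay above the young males. The mean went from 0.284 ± 0.0630 CPM (SD, n = 5) to 1.09 ± 0.321 CPM (SD, n = 4) with age in females (log2 fold change 1.96, SE 0.32, FDR = 0.000785). In males the age difference missed the threshold (log2 fold change 1.69, SE 0.59, FDR = 0.132). HDM201 mice overlapped old vehicle mice in both sexes, with values above 0 that were not called (females: log2 fold change 0.56, SE 0.35, FDR = 0.377. Males: log2 fold change 0.62, SE 0.41, FDR = 0.561). Its receptor Ccr2 was higher with age in females (log2 fold change 1.76, SE 0.26, FDR = 0.000449) and in males (log2 fold change 2.00, SE 0.47, FDR = 0.0496), and measured log2 fold change -0.58, SE 0.18, FDR = 0.0859 with HDM201 in females.

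Ccl4 was too low to test: the count filter removed it from each comparison of 2 groups. Its reads numbered 0 to 5 per mouse in young vehicle females and 0 in each of 4 young vehicle males, against 5 to 12 in old vehicle females and 3 to 17 in old vehicle males. In CPM these were 0.189, 0.0513, 0.0520, 0.287 and 0 in young vehicle females and 0.369, 0.223, 0.387 and 0.562 in old vehicle females. Old vehicle males were at 0.521, 0.232, 0.976 and 0.159 CPM. With 34 reads in old vehicle males against 0 in young males, a floor of 3 counts over the young group makes it at least 11.9-fold higher. This bound covers counting error in the young group only and takes the 34 reads as exact. Old vehicle male 4 held 17 of the 34 reads, and without it the bound was 7.9-fold. An exact two-sided permutation test on log2(CPM + 1) gave an unadjusted p = 0.0317 for age in females (n = 5 and 4) and p = 0.0286 in males (n = 4 and 4), the smallest that design allows. With HDM201 the old mice overlapped the vehicle mice, at 0.574, 0.273, 0.333, 0.490 and 0.423 CPM in females and 1.67, 0.321, 0.519, 0.373 and 0.220 CPM in males (exact permutation p = 0.698 and 0.746). Without the count filter, by DESeq2 and with all 6 groups in one fit, Ccl4 passed FDR 0.05 for age in males.

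Ccl6 and Ccl9 lie side by side and encode related CC chemokines of myeloid cells. Ccl6 was at 5.30, 4.92, 4.16, 4.43 and 3.53 CPM in young vehicle females, 9.27, 10.7, 13.3 and 13.3 in old vehicle females and 9.34, 5.85, 9.35, 6.37 and 9.11 in old HDM201 females. Every old female was above every young female, and 2 of 5 HDM201 females lay above the lowest old vehicle female. With age it rose from 4.47 ± 0.683 CPM (SD, n = 5) to 11.6 ± 2.00 CPM (SD, n = 4) (log2 fold change 1.41, SE 0.15, FDR = 6.44e-05). With HDM201 the mean was 8.01 ± 1.74 CPM (SD, n = 5), a difference that missed the threshold by edgeR (log2 fold change -0.56, SE 0.16, FDR = 0.0721) and passed it by DESeq2 (FDR = 0.0287) and without the count filter (FDR = 0.0322). Among males Ccl6 was at 1.57, 4.51, 2.67 and 2.99 CPM in young vehicle, 7.45, 4.40, 15.2 and 4.41 in old vehicle and 5.23, 5.46, 6.06, 6.93 and 10.9 in old HDM201 mice. The male age difference was of like size with a larger standard error (log2 fold change 1.43, SE 0.44, FDR = 0.0950). With HDM201 in males Ccl6 measured log2 fold change -0.18, SE 0.37, FDR = 0.876.

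Ccl9 was at 96.8, 73.9, 83.9, 76.9 and 74.2 CPM in young vehicle females, 53.7, 65.6, 73.4 and 77.4 in old vehicle females and 107, 92.7, 85.7, 73.2 and 73.7 in old HDM201 females. Here old vehicle females were the lowest of the 3 groups by mean, and all groups overlapped. The fitted values were log2 fold change -0.24, SE 0.12, FDR = 0.130 with age and log2 fold change 0.34, SE 0.13, FDR = 0.143 with HDM201, neither past the threshold. Ccl9 in males was at 57.3, 63.4, 89.7 and 73.6 CPM in young vehicle, 73.1, 59.5, 66.6 and 51.1 in old vehicle and 39.5, 59.1, 63.5, 87.5 and 52.5 in old HDM201 mice. These also overlapped (log2 fold change -0.17, SE 0.16, FDR = 0.573 with age and log2 fold change -0.043, SE 0.20, FDR = 0.945 with HDM201). The shared receptor Ccr1 had 8 to 9 reads over each young group and 36 to 99 over each old group, and of the comparisons between 2 groups it was tested only for HDM201 in males (log2 fold change 0.59, SE 0.47, FDR = 0.632).

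Ccl24, the eosinophil attractant, was at 2.08, 1.95, 1.77, 1.95 and 1.52 CPM in young vehicle females, 1.42, 1.20, 2.10 and 0.656 in old vehicle females and 1.93, 0.984, 1.16, 1.29 and 1.50 in old HDM201 females. Young vehicle males were at 0.846, 1.89, 0.491 and 0.588 CPM, old vehicle males at 1.20, 1.10, 3.33 and 1.38 and old HDM201 males at 1.22, 1.44, 1.21, 1.23 and 0.495. The groups overlapped in every comparison. With age it measured log2 fold change -0.45, SE 0.28, FDR = 0.244 in females and log2 fold change 0.90, SE 0.50, FDR = 0.325 in males, of opposite sign, and the sex by age interaction did not pass (log2 fold change -1.34, SE 0.59, FDR = 0.193). With HDM201 it measured log2 fold change 0.025, SE 0.31, FDR = 0.972 in females and log2 fold change -0.63, SE 0.39, FDR = 0.530 in males. Eosinophil markers (Siglecf, Prg2, Epx and Il5ra) summed to at most 0.996 CPM in any of the 27 mice, and the receptor gene Ccr3 had 3 to 16 reads per group.

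Cxcl1, the neutrophil attractant, was at 10.8, 4.00, 3.48, 4.77 and 5.39 CPM in young vehicle females, 9.22, 12.2, 9.13 and 13.1 in old vehicle females and 14.9, 6.34, 11.4, 9.57 and 10.0 in old HDM201 females. Young female 1 reached the level of the old mice, and the other 4 young females lay below all old vehicle females. The age difference in females passed the threshold (log2 fold change 0.98, SE 0.28, FDR = 0.0172), fell short without old vehicle female 4 (log2 fold change 0.88, FDR = 0.0519) and was larger without young female 1 (1.32, FDR = 0.000551). Over all fits without 1 mouse the FDR ranged from 0.000551 to 0.0519. HDM201 and vehicle females overlapped (log2 fold change -0.086, SE 0.20, FDR = 0.845). In the male groups Cxcl1 was at 5.50, 8.57, 8.83 and 4.57 CPM in young vehicle, 14.3, 9.39, 14.9 and 7.48 in old vehicle and 7.68, 16.2, 9.40, 14.1 and 38.2 in old HDM201 mice. Old HDM201 male 5 was far above the others of its group, and neither male difference was called (log2 fold change 0.76, SE 0.27, FDR = 0.137 with age and log2 fold change 0.58, SE 0.43, FDR = 0.599 with HDM201). Without that mouse the HDM201 value was 0.044. Its receptor Cxcr2 had 8 to 52 reads per group and was not tested in any comparison of 2 groups.

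Cxcl9, one of the Cxcr3 ligands, was at 10.9, 9.84, 11.9, 19.5 and 10.5 CPM in young vehicle females, 16.7, 13.5, 13.8 and 18.0 in old vehicle females and 23.5, 15.5, 13.4, 15.8 and 15.6 in old HDM201 females. In the males it was at 5.02, 7.09, 9.76 and 14.1 CPM in young vehicle, 26.8, 15.8, 34.0 and 8.60 in old vehicle and 31.4, 12.0, 23.8, 12.3 and 40.9 in old HDM201 mice. Female groups overlapped, with young female 4 above all old vehicle females, and no comparison called Cxcl9 (log2 fold change 0.33, SE 0.18, FDR = 0.186 with age in females and log2 fold change 1.25, SE 0.42, FDR = 0.119 in males). Without young female 4 the female age difference passed (log2 fold change 0.53, FDR = 0.00594, within a range of FDR from 0.00594 to 0.389 over the fits without 1 mouse). With HDM201 it measured log2 fold change 0.092, SE 0.15, FDR = 0.775 in females and log2 fold change 0.19, SE 0.44, FDR = 0.891 in males.

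Cxcl10, the other Cxcr3 ligand, was at 1.70, 1.49, 3.17, 2.99 and 1.67 CPM in young vehicle females, 3.74, 3.12, 2.88 and 4.45 in old vehicle females and 7.57, 3.06, 2.62, 5.16 and 2.35 in old HDM201 females. Of the 4 old vehicle females, 2 lay above all young females. The female age difference was near the threshold (log2 fold change 0.71, SE 0.25, FDR = 0.0453): it passed without young female 3 or 4 or old vehicle female 3 and missed without any of the other 6 mice, where its log2 fold change was 0.58 to 0.77. Male levels were 1.09, 2.23, 3.65 and 2.81 CPM in young vehicle, 9.59, 4.75, 7.64 and 2.81 in old vehicle and 8.29, 2.30, 5.19, 5.44 and 10.8 in old HDM201 mice. Of the 4 old vehicle males, 3 lay above all young males, and the difference was not called (log2 fold change 1.35, SE 0.42, FDR = 0.0996). With HDM201 Cxcl10 measured log2 fold change 0.20, SE 0.33, FDR = 0.763 in females and log2 fold change 0.055, SE 0.43, FDR = 0.969 in males. The receptor Cxcr3 was higher with age in females (log2 fold change 1.14, SE 0.35, FDR = 0.0255) and measured log2 fold change -0.99, SE 0.27, FDR = 0.0611 with HDM201 in females and log2 fold change 0.99, SE 0.45, FDR = 0.409 in males.

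Cxcl13, the B cell attractant, varied most within old vehicle females and old HDM201 males. It was at 1.01, 1.38, 1.25, 0.747 and 0.785 CPM in young vehicle females, 0.632, 17.2, 1.77 and 9.04 in old vehicle females and 1.15, 1.04, 0.707, 0.356 and 0.752 in old HDM201 females. Old vehicle females 2 and 4, with 387 and 193 reads, stood above all other females, and old vehicle female 1 was below all 5 young females. With age it rose in females (log2 fold change 2.83, SE 0.71, FDR = 0.00945), and with HDM201 it was lower (log2 fold change -3.22, SE 0.76, FDR = 0.0345). The HDM201 call was lost without old vehicle female 2 (log2 fold change -2.30, FDR = 0.119), without old vehicle female 4 (-3.09, FDR = 0.0857) and without any single HDM201 female of the 5 (-3.38 to -3.02, FDR = 0.0505 to 0.0866). It was kept without old vehicle female 1 or 3, the lowest FDR being 0.00879. An exact two-sided permutation test of log2(CPM + 1) gave an unadjusted p = 0.0794 for HDM201 (n = 5 and 4) and p = 0.127 for age (n = 4 and 5), where the ranges overlapped. By edgeR the Cxcl13 age call held without each single mouse in turn, with log2 fold changes of 1.92 to 3.20.

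Male levels of Cxcl13 were 0.544, 0.743, 1.09 and 0.317 CPM in young vehicle, 0.573, 2.20, 3.33 and 1.01 in old vehicle and 2.17, 0.856, 2.19, 0.213 and 31.6 in old HDM201 mice. A single mouse, old HDM201 male 5, set the mean of its group, and the other 4 lay at or below 2.19 CPM. The fitted values were log2 fold change 1.41, SE 0.56, FDR = 0.174 with age and log2 fold change 2.08, SE 1.19, FDR = 0.492 with HDM201, and the latter became -0.38 without that male. The sex by HDM201 interaction of Cxcl13 was log2 fold change -5.28, SE 1.56, FDR = 0.0922 (negative, the female fold change lying below the male one), and -2.82 without old HDM201 male 5. Its receptor Cxcr5 was higher with age in females (log2 fold change 2.64, SE 0.60, FDR = 0.00555) and measured log2 fold change -1.03, SE 0.50, FDR = 0.247 with HDM201.

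The mice with high Cxcl13 also had high macrophage marker levels. Summed over 8 Kupffer cell markers, old vehicle females 2 and 4 had 684 and 614 CPM against 346 and 465 in females 1 and 3, and old HDM201 male 5 had 549 against 213 to 298 in the rest of its group. Over 7 B cell markers they were not the highest of their groups, with 16.2 and 9.09 CPM in old vehicle females 2 and 4 against 15.1 and 23.0 in the other old vehicle females. Old HDM201 male 5 had 8.80 CPM of them, near the lower end of its group (8.80 to 21.3). Its hepatocyte marker sum was the lowest of the 27 mice, at 79425 CPM against 108236 to 156549 in the rest of its group. The part of these cells in the Cxcl13 levels was not tested. The FPKM total of this mouse, 6010507, was also the highest of all 29 mice.

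Cxcl16, the ligand that is anchored in the membrane, was at 7.56, 6.41, 5.46, 6.67 and 5.88 CPM in young vehicle females, 9.54, 15.2, 11.1 and 13.0 in old vehicle females and 10.6, 8.09, 10.9, 9.62 and 10.3 in old HDM201 females. Among males it was at 3.87, 5.43, 4.36 and 3.94 CPM in young vehicle, 10.9, 9.04, 13.0 and 7.85 in old vehicle and 11.3, 8.35, 13.0, 13.3 and 14.8 in old HDM201 mice. Among mice with counts, all old mice of either treatment lay above all young mice of their sex. By FPKM, young vehicle male 5, which has no counts, was at 3.72, above old vehicle male 5 at 3.15. With age it rose in females (log2 fold change 0.96, SE 0.15, FDR = 0.000610) and in males (log2 fold change 1.23, SE 0.19, FDR = 0.0102), and neither call was lost without any single mouse. HDM201 and vehicle mice overlapped in both sexes (log2 fold change -0.32, SE 0.14, FDR = 0.178 in females and log2 fold change 0.26, SE 0.19, FDR = 0.595 in males). The difference of these effects between the sexes did not pass (log2 fold change -0.58, SE 0.24, FDR = 0.210). The receptor Cxcr6 was called in no comparison, with log2 fold change 0.30, SE 0.30, FDR = 0.466 for age in females and log2 fold change 1.04, SE 0.42, FDR = 0.186 in males.

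**Figure D3:**
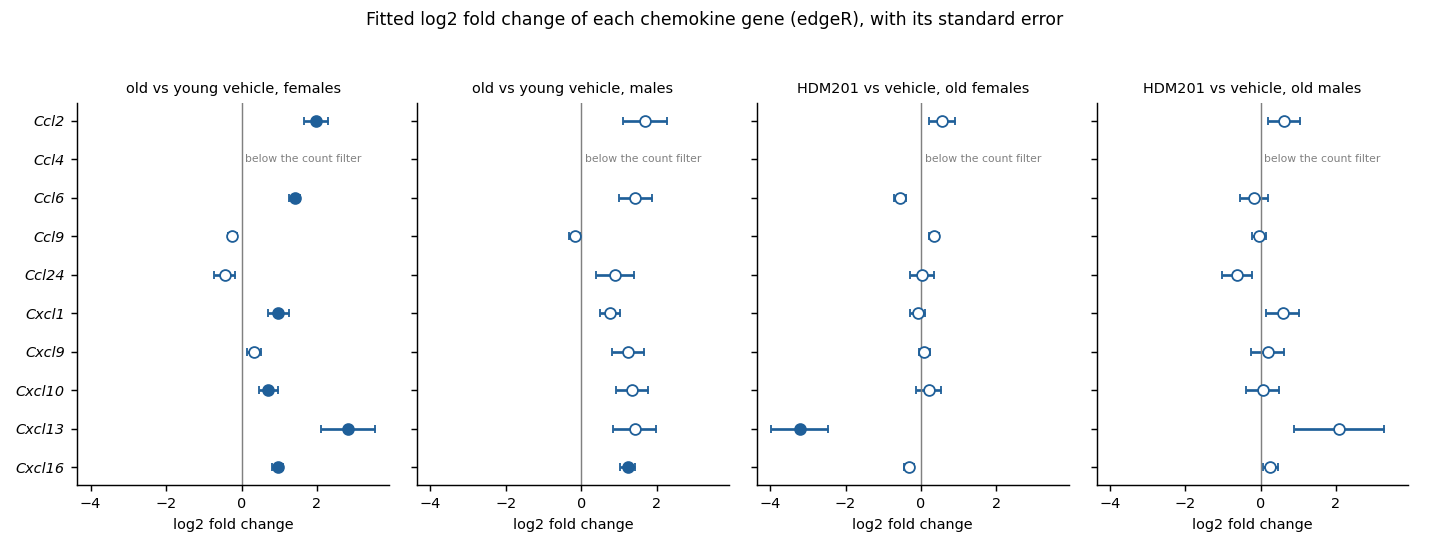
Fitted log2 fold change of each member (points) with its standard error (bars) in 4 comparisons, with filled points past FDR 0.05. In females 6 members rose with age and only Cxcl13 was called with HDM201, a call lost in 7 of 9 fits without 1 mouse. In males Cxcl16 with age was the only call.

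Counted without a model, 3 of 10 members had all old vehicle females above all young females (Ccl2, Ccl6 and Cxcl16), where 12.3% of genes did. In males with counts these were 2 of 10 (Ccl4 and Cxcl16), where 7.18% of genes did. These percentages, and those for HDM201 next, are of genes that passed the count filter, which removed Ccl4. With HDM201, CPM ranges overlapped for all 10 members in both sexes, where 5.91% of genes lay wholly above and 4.24% wholly below vehicle in females, and 1.52% and 2.51% in males. Median log2 fold changes of the tested members were 0.96 with age in females and 1.25 in males, beside 0.0094 and -0.015 for all genes tested. With HDM201 they were 0.025 in females and 0.19 in males, beside 0.0010 and 0.014 for all genes. As the members were chosen with earlier results known, these medians and counts do not test the set.

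Set directly beside young vehicle mice, as a description with no test, old HDM201 females had Ccl2, Ccl6 and Cxcl16 wholly above them, where 9.15% of genes did. Mean Ccl2 was then 5.82 times and mean Cxcl16 1.55 times that of young females, while mean Cxcl13 was 0.774 times. In males, Ccl2, Ccl4, Ccl6 and Cxcl16 of HDM201 mice lay wholly above young mice with counts, where 10.6% of genes did. Both percentages are of genes tested for HDM201 against vehicle in that sex, a set without Ccl4.

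Between the sexes, young vehicle females had higher Cxcl16 than young vehicle males (log2 fold change 0.53, SE 0.15, FDR = 0.0459), and it was the only 1 of 8 members called, with Ccl2 and Ccl4 below the count filter, where 5.63% of 13875 genes were called higher and 4.91% lower in females. All 5 young females lay above all 4 young males for Cxcl16, where 6.75% of genes did so. This call was kept without young male 2 or young female 3 and missed without any of the other 7 mice, with log2 fold changes of 0.47 to 0.64 over all 9 fits. Ccl24 measured log2 fold change 0.96, SE 0.35, FDR = 0.0956 and Ccl6 log2 fold change 0.59, SE 0.25, FDR = 0.150 there, and both passed without young male 2 (1.52, FDR = 0.00606, and 0.86, FDR = 0.0381). Over the fits without 1 mouse their FDR reached 0.239 and 0.259. Old females were 20 months and old males 24 months old, so both interactions mix sex with age. The sex by HDM201 interaction called none of 10 members by edgeR and 1 by DESeq2 (Cxcl13), where 0.107% of 14974 genes were called by edgeR, and 2 members had an unadjusted p under 0.05 (Cxcl13 and Cxcl16). The sex by age interaction called none of 9 by either tool, where 3.92% of 14721 genes were called, and 1 had an unadjusted p under 0.05 (Ccl24). For both interactions the share of all genes with an unadjusted p under 0.05 was not counted.

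The other genes of the pathway were read from lists of 28 further ligands, 23 receptors and 22 inducers and signalling genes. With age in females, 5 of 8 tested ligands rose (Ccl5, Cx3cl1, Cxcl12, Cxcl14 and Pf4), and none fell. Cxcl12, which retains progenitors and leukocytes through Cxcr4, had group means of 339 CPM in young and 435 CPM in old vehicle females (log2 fold change 0.38, SE 0.087, FDR = 0.00526). Ccl5, a T cell and monocyte attractant, rose in females (log2 fold change 1.43, SE 0.34, FDR = 0.00688) and was the only 1 of 8 tested ligands called in males (log2 fold change 2.71, SE 0.50, FDR = 0.0212). Of 13 receptors tested, 6 rose with age in females (among them Ccr2, Cx3cr1, Cxcr3, Cxcr4 and Cxcr5), and of 10 tested in males 3 rose (Ccr2, Cx3cr1 and Cxcr4). HDM201 in females lowered 2 of 14 receptors, among them Cxcr4 (log2 fold change -0.90, SE 0.23, FDR = 0.0426), and none of 9 further ligands. Group means of Cxcr4 were 0.741 CPM, 2.78 CPM and 1.49 CPM in young vehicle, old vehicle and old HDM201 females. In males HDM201 changed none of 10 ligands and none of 14 receptors by edgeR.

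Among inducers, 9 of 19 tested rose with age in females, among them Il1b, the inflammatory cytokine (log2 fold change 2.33, SE 0.39, FDR = 0.000962), Irf8, a myeloid and interferon regulator (log2 fold change 1.03, SE 0.12, FDR = 0.000139), and Relb, an NF-kB subunit (log2 fold change 1.49, SE 0.21, FDR = 0.000327). Relb (log2 fold change 1.65, SE 0.25, FDR = 0.00977) and the TNF receptor gene Tnfrsf1b (log2 fold change 0.48, SE 0.11, FDR = 0.0426) were the 2 of 19 that rose in males. HDM201 in females lowered 2 of 19 inducers, Il1b (log2 fold change -1.20, SE 0.31, FDR = 0.0469) and Irf8 (log2 fold change -0.64, SE 0.13, FDR = 0.0193), and none of 20 was called in males. Beside these counts, 16.8% of all genes tested were called higher with age in females and 2.76% in males. With HDM201 in females 2.90% were called lower.

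Markers of the cells that make or answer chemokines were read in the same comparisons. Of all genes tested, 16.8% were called higher with age in females and 2.76% in males, and 2.90% lower with HDM201 in females. Of 8 Kupffer cell markers, 7 rose with age in females and 1 in males, and 7 were lower with HDM201 in females and none in males. Their sum was 226 to 327 CPM in young vehicle, 346 to 684 in old vehicle and 206 to 342 in old HDM201 females. The male sums were 94.3 to 214, 148 to 455 and 213 to 549 CPM. Of 8 monocyte and macrophage markers, Lyz2 among them, 6 of 6 tested rose with age in females and 4 of 5 in males, and 2 of 7 were lower with HDM201 in females. Their sums were 42.1 to 72.3, 96.3 to 227 and 70.7 to 111 CPM in the female groups and 22.2 to 35.1, 52.4 to 140 and 79.7 to 204 CPM in the male groups, in the same order. No marker of either list was at 0 in any group. The share of these cells in the chemokine differences was not tested.

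Neutrophil markers summed to 1.86 to 3.97 CPM in young vehicle, 5.37 to 35.6 in old vehicle and 6.67 to 9.54 in old HDM201 females, and to 1.57 to 3.83, 3.13 to 28.0 and 5.73 to 27.7 CPM in the male groups. All 3 tested rose with age in females and none of 2 in males, and the defining marker Ly6g was at 0 in both young groups. B cell markers summed to 2.55 to 5.92, 9.09 to 23.0 and 7.49 to 9.04 CPM in the female groups, where 5 of 6 tested rose with age and 1 was lower with HDM201. In the male groups they summed to 3.02 to 4.63, 9.23 to 16.1 and 8.80 to 21.3 CPM, and 3 of 5 tested rose with age. T and NK cell markers summed to 3.85 to 5.30, 6.28 to 7.40 and 4.03 to 7.88 CPM in females and 1.87 to 3.60, 4.98 to 11.8 and 7.97 to 33.1 CPM in males, and 3 of 7 tested rose with age in females. With age in females, 1 of 4 dendritic cell, 2 of 4 plasma cell, 3 of 7 stellate cell and 2 of 5 cholangiocyte markers tested rose, 1 of 7 endothelial markers rose and 1 fell, and 3 of 7 hepatocyte markers fell. With HDM201 in females 2 of 5 cholangiocyte markers were higher and 1 of 7 endothelial markers was lower. The part of these cells in the chemokine levels was not tested.

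Kupffer marker sums overlapped between young vehicle and old HDM201 females, while Cxcl16, Ccl6 and Ccl2 did not. Monocyte and macrophage sums (42.1 to 72.3 against 70.7 to 111 CPM) and T and NK cell sums also overlapped between these groups, and neutrophil and B cell sums did not, being higher in old HDM201 females. Across the 27 mice, Spearman's rho with the Kupffer sum was 0.815 for Ccl6, 0.679 for Cxcl16, 0.519 for Cxcl13 and 0.032 for Ccl9, and with the monocyte and macrophage sum it was 0.978 for Cxcl16, 0.864 for Ccl6 and -0.153 for Ccl9. With the neutrophil sum rho was 0.917 for Cxcl16, 0.858 for Ccl6 and 0.808 for Ccl2, and with the T and NK cell sum it was 0.821 for Cxcl16. These are descriptions over mice of 6 groups on a common scale, with no test.

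**Figure D4:**
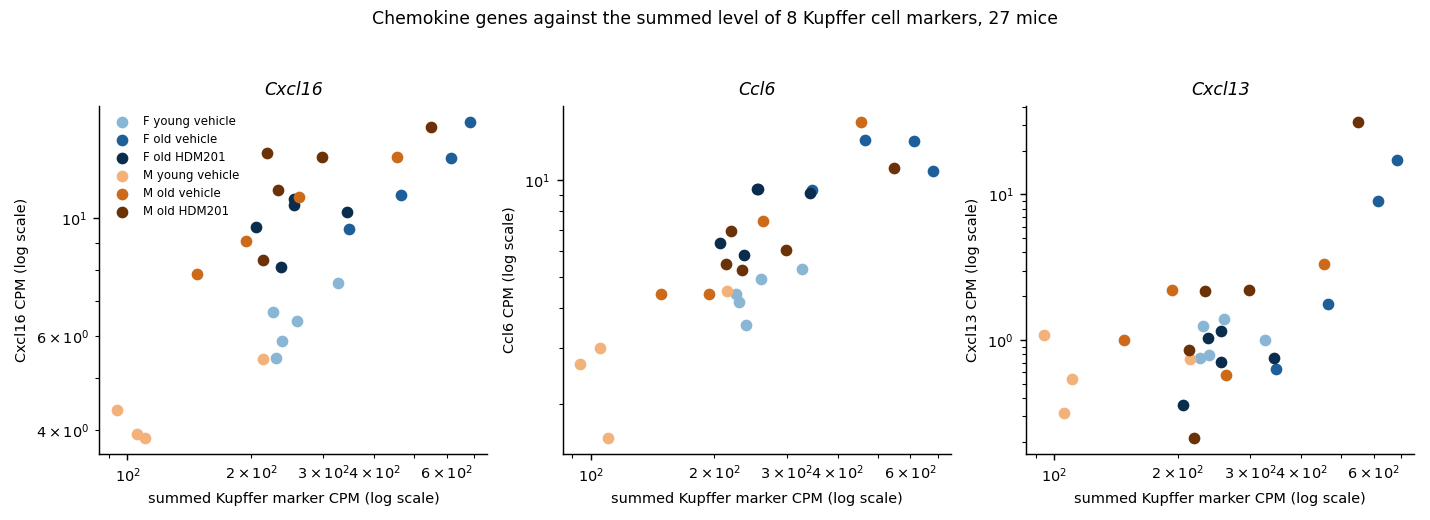
Cxcl16, Ccl6 and Cxcl13 (CPM, log axis) against the summed CPM of 8 Kupffer cell markers (log axis) in 27 mice, coloured by group. Old HDM201 and young vehicle females share a range of marker sums but not of Cxcl16 or Ccl6, and the 3 mice highest for Cxcl13 have the 3 highest sums. Spearman's rho with this sum was 0.679, 0.815 and 0.519 for Cxcl16, Ccl6 and Cxcl13. With the monocyte and macrophage sum, not drawn, it was 0.978, 0.864 and 0.487.

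For the 9 members with a mean of at least 1 CPM over all mice, the 3 genes most like them were taken by Spearman's rho over the 27 mice among 12772 genes. Cxcl16 lay closest to Lyz2 (0.971), Cyba (0.957) and Lgals3 (0.955). Hmox1 (0.942) and Tgfb1 (0.936) were among the 3 closest to Ccl6, and Ccl2 lay closest to Icam1 (0.902), S100a8 (0.886) and Rhoc (0.859). Ccl9 stood with Habp2 (0.904), Vps28 (0.836) and Gstm2 (0.803). The gene most like Cxcl9 was Cxcl10 (0.796), followed by Slamf8 (0.791) and Klra2 (0.766), whereas Cxcl10 was most like Ccl2 (0.827), Ifi47 (0.799) and Icam1 (0.796). Cxcl1 stood with Tlr2 (0.809), Fos (0.804) and Junb (0.803). Cxcl13, with Syne4 (0.673), Adgre4 (0.656) and Cd300lf (0.651), and Ccl24, with Rab23 (0.757), Asah2 (0.733) and Smyd3 (0.707), had no gene as close. Among members, rho was 0.841 for Ccl6 with Cxcl16, 0.806 for Ccl2 with Cxcl16 and 0.020 for the neighbours Ccl6 and Ccl9. With group means removed, Pearson's r of log2(CPM + 1) was 0.829 for Cxcl9 with Cxcl10, 0.793 for Ccl2 with Cxcl10, 0.736 for Ccl6 with Cxcl16 and 0.318 for Ccl6 with Ccl9. These values describe mice that share library preparation and scaling, and carry no test.

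FPKM values (fragments per kilobase of transcript per 1000000 fragments) covered 2 further mice without counts, and these held the extreme chemokine levels. They were old vehicle male 1 and, of the young vehicle males, number 5. Old vehicle male 1 had the highest FPKM of all 29 mice for 8 of 10 members and was above the 4 other old vehicle males for 9. Its Ccl24 was 60.3 FPKM against 0.865 to 3.95 in those 4, its Cxcl9 47.2 against 2.45 to 10.3, its Cxcl10 26.7 against 2.48 to 9.37 and its Cxcl13 12.8 against 0.605 to 2.77. Among 18119 genes averaging at least 0.1 FPKM, 58.7% were also above those 4 mice. The share of all genes for which this mouse was the highest of all 29 was not counted. B cell markers summed to 158 FPKM in this mouse against at most 12.1 in any other, Kupffer cell markers to 790 against at most 503, and hepatocyte markers to 43247 against at least 46970.

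Young vehicle male 5 had 93.7 FPKM of Cxcl1 against 3.76 to 7.11 in the 4 other young males, and 17.2 FPKM of Ccl6 against 1.37 to 3.77. Its Ccl9, Cxcl9 and Cxcl10 were not above those mice. It was above them for 7 of 10 members, where 24.9% of genes were. Neutrophil markers summed to 521 FPKM in this mouse against at most 81.7 in any other. The methods say that a young male was left out because of a wound and a suspected infection, and whether it was this mouse is not given in the sources used here. With both mice kept among the males, a limma test on log2(FPKM + 1), chosen after the data were seen, called 5 members with age in females and none in males. The share of all genes called by limma is not set beside these counts.

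**Figure D5:**
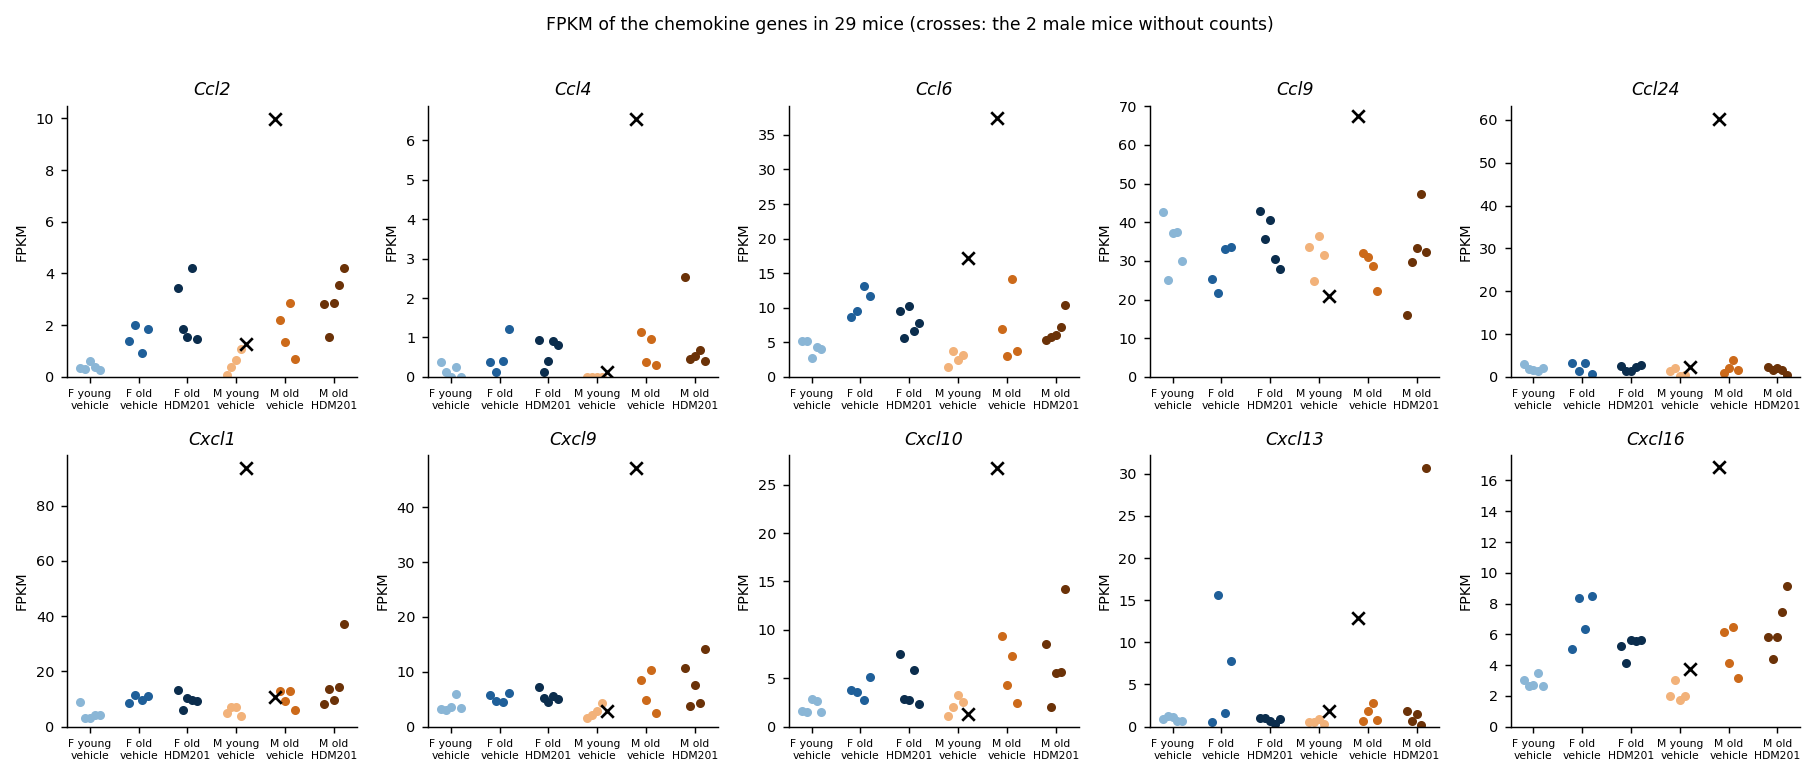
FPKM of each member (linear axis from 0) in 29 mice by group, with crosses for the 2 males that have no counts. Old vehicle male 1 is highest for 8 members, at 60.3 FPKM for Ccl24, and young vehicle male 5 is highest for Cxcl1 at 93.7 FPKM. The share of all genes highest in these mice was not counted.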

How the data were processed

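Whole livers of 29 mice were profiled by bulk RNA-seq. Reads had been mapped by the authors with STAR (mm10), and the deposited counts are whole-number reads per gene from HTSeq, with no normalization, for 27 mice. The FPKM values were computed by the authors with Cufflinks and deposited for all 29 mice. Their totals per mouse ranged from 690769 to 6010507, and 94.8% of the empty FPKM cells in mice with counts had 0 counts. Versions and the strand setting of the counting are not given in the sources used here. Columns left unused numbered 0.

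Groups came from the sample labels. Counts were scaled by the trimmed mean of M values and tested per comparison with edgeR 4.0.16 (quasi-likelihood, filterByExpr, which asked for 10 counts at median depth in as many mice as the smaller group holds and 15 over all, no covariates) in R 4.3.3. Interactions of sex with HDM201 or age were fitted over 4 groups, as the log2 fold change in females minus that in males. A positive value means that the signed female value lay above the male one, whichever change was larger in size. Adjusted p-values are Benjamini-Hochberg over all genes tested. Members below the filter, and Cxcl13 in females beside its fit, were tested by exact two-sided permutation of log2(CPM + 1). Nothing in the labels gives separate cages or days, so p-values measure the spread between these mice. Counting floors used 3 counts and cover counting error in the group without reads only. The depth per mouse is given with the results. Tables were handled in Python 3.11.15 with numpy 2.4.6, scipy 1.17.1 and pandas 2.3.3.

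Alternatives were relative log expression size factors, DESeq2 1.42.0, no count filter, all 6 groups in one fit, FDR under 0.01, the replicate number as a block, leaving out each mouse, and limma 3.58.1 on log2(FPKM + 1), which was added after the data were seen. The edgeR fits alone were tried on simulated counts, with changes put in and a common dispersion for all genes. The other tests were not tried in this way. Genes named were the 10 members, their receptors, called genes of the ligand, receptor and inducer lists (at most 6 per list and comparison), markers at 0, and the 3 genes most like each member. Members and lists were chosen with earlier results of these data known. Some genes that this rule names are not reported here.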

Additional observations from a re-analysis of the deposited data

Results flagged for a closer look

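In 8 of the 59 pairs of member and group examined, 1 mouse stood apart from the others of its group by Dixon's test. For normally spread values chance alone gives this in about 1 in 20 groups. The CPM values were not checked for that, and the pairs share mice, so the 8 cannot be set against that rate. Old HDM201 male 5 was set apart 3 times, as the highest for Cxcl13 (31.6 CPM, others 0.213 to 2.19) and for Cxcl1 (38.2 CPM, others 7.68 to 16.2) and the lowest for Ccl24 (0.495 CPM, others 1.21 to 1.44). Old HDM201 male 1 was the highest for Ccl4 (1.67 CPM, others 0.220 to 0.519), and old vehicle male 4 for Ccl24 (3.33 CPM, others 1.10 to 1.38). Young vehicle female 1 was the highest for Cxcl1 (10.8 CPM, others 3.48 to 5.39), and young vehicle female 4 for Cxcl9 (19.5 CPM, others 9.84 to 11.9). Old HDM201 female 1 was the highest for Cxcl9 (23.5 CPM, others 13.4 to 15.8).

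The FPKM values of the mice without counts entered no count test, and each value here was the highest of all 29 mice. In old vehicle male 1 these were Ccl2 at 10.0, Ccl4 at 6.55, Ccl6 at 37.4, Ccl9 at 67.6, Ccl24 at 60.3, Cxcl9 at 47.2, Cxcl10 at 26.7 and Cxcl16 at 16.9 FPKM. In young vehicle male 5 it was Cxcl1 at 93.7 FPKM. The share of all genes highest in these mice was not counted. Above the other mice of the group were 58.7% of 18119 genes in old vehicle male 1 and 24.9% in young vehicle male 5.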

How the results depend on the processing

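The number of members called with age in females, 6, was 4 to 6 under the other settings and 4 to 7 without 1 mouse, Cxcl9 being added without young vehicle female 4. For HDM201 in females the 1 call became 0 at FDR under 0.01, with all 6 groups in one fit, with the replicate block and by limma on log2(FPKM + 1), and 2 by DESeq2 and with no filter (0 to 1 without 1 mouse). For age in males the 1 call became 0 at FDR under 0.01, with the replicate block and by limma, 4 by DESeq2, 5 with no filter and 6 with all 6 groups in one fit (1 to 3 without 1 mouse). Between the sexes it became 0 at FDR under 0.01, with no filter, with the replicate block and by limma (0 to 3 without 1 mouse). The sex by HDM201 interaction gave 1 by DESeq2. The shares of all genes called under these settings are not set beside these counts, so the counts describe the members only. The cause of these moves was not tested. Leaving out old vehicle male 5 added Cxcl9 (1.52) and Cxcl10 (1.60) to the calls for age in males. Young vehicle male 2 and the other mice that decide a call are named with the results.

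Same-numbered mice did not deviate together (r from -0.197 to 0.190), so the replicate block pairs mice by number only. It turned the sign for HDM201 in males of Ccl6 (0.031), Ccl9 (0.062) and Cxcl10 (-0.11), and of the interactions of Ccl4 with HDM201 (0.23) and Ccl2 with age (-0.052), none of them called.

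The limma fit turned the sign of Cxcl9 (-0.29) and Cxcl10 (-0.24) with HDM201 in males, Ccl24 (0.012) with age in females, Ccl9 (0.21) and Cxcl1 (-0.014) with age in males and Cxcl10 (0.033) between the sexes. It also did so for the HDM201 interactions of Ccl2 (0.28), Ccl4 (0.44) and Cxcl9 (0.34) and the age interactions of Ccl2 (-0.24) and Ccl6 (0.17). Without 1 mouse the sign turned for values not called. With HDM201 in females the log2 fold change ran from -0.21 to 0.31 for Ccl24, -0.24 to 0.046 for Cxcl1, -0.12 to 0.35 for Cxcl10 and -0.060 to 0.18 for Cxcl9. In males it ran from -0.40 to 0.35 for Ccl6, -0.22 to 0.077 for Ccl9, -0.22 to 0.35 for Cxcl10, -0.38 to 2.57 for Cxcl13 and -0.096 to 0.50 for Cxcl9. Between the sexes it ran from -0.41 to 0.091 for Cxcl10. The HDM201 interaction ran from -0.45 to 0.22 for Ccl2, -0.89 to 0.49 for Ccl4, -0.17 to 0.43 for Cxcl10 and -0.40 to 0.19 for Cxcl9, and the age interaction from -0.14 to 0.69 for Ccl2, -0.28 to 0.52 for Ccl6 and -0.19 to 0.028 for Ccl9. With relative log expression size factors all 63 values kept their direction and side of the threshold. Ccl2, Ccl4 and Ccl24 had at most 57, 30 and 58 reads in any mouse, which limits their precision.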
